A study of Mus musculus with 18 samples.

Results

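The core pluripotency factors described here are 8 genes taken by symbol, from a list made with earlier results of these data known: Pou5f1, Sox2, Nanog, Sall4, Utf1, Tdgf1, Lin28a and Lin28b. They are 8 of the 26157 gene symbols counted at day 2 and 8 of the 54114 symbols counted at days 8 and 16. All 8 were present in both tables and passed the filter on low counts in each comparison.

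RNA was sequenced from a mouse embryonic stem (ES) cell line with a tdTomato reporter at Msx1, a homeobox gene of craniofacial mesenchyme, and 14 libraries in 7 groups of 2 were analysed. At day 2, embryoid bodies (EBs, aggregates formed in hanging drops) with inducible Dlx2 were compared with EBs with inducible GFP, both under 1 µg/ml doxycycline. At days 8 and 16, EB cells with inducible Dlx2, also under doxycycline, had passed through a flow sorter gated on the reporter, which gave an Msx1-positive and an Msx1-negative fraction. A further group is labelled as untreated, wild-type ES cells of the reporter line, which is kept in serum with LIF. Both sorted fractions thus carried the Dlx2 transgene and doxycycline, and GFP controls for days 8 and 16 were not analysed here. Dlx2 is a homeobox factor of the pharyngeal arches, and the design asked how its forced expression moves ES cells toward ectomesenchyme, the facial mesenchyme of neural crest origin. The labels do not say whether a line is 1 clone or whether replicates are separate cultures. The p-values below therefore measure the spread between libraries, which may be technical.

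Total counts ran from 26211608 to 41552818 per library at day 2 and from 53797597 to 107770730 in the other table. Levels are CPM, read counts set relative to library size and scaled by TMM within each table. The tables were scaled separately, so levels at day 2 and later stand side by side without a test. Changes are log2 differences with a standard error (SE) from edgeR's quasi-likelihood fit, and a gene is said to have risen or fallen when its Benjamini-Hochberg adjusted p was below 0.05. With 2 libraries against 2, a single value cannot give a two-sided exact p below 0.333, so a call on 1 gene draws on the spread that the fit pools over genes. How many of all genes separate the libraries of 1 group from those of another was not counted, so non-overlap is a description only. When libraries were scaled by size alone, the median difference of all genes went from 0.02 to 0.20 at day 2, from 0.06 to 0.22 between the fractions at day 8 and from 0.11 to 0.30 between Msx1-positive cells of day 8 and the ES label. Dlx2 gave 2 counts in each GFP library and stood at 4532 ± 266 CPM (SD, n = 2) in Dlx2 EBs. The libraries labelled ES, described as wild type and untreated, held Dlx2 at 220.2 ± 2.0 CPM with 11340 and 11302 counts. They are called "labelled ES" throughout, and results that need them are kept apart from the comparisons of the sorted fractions, which were fitted without them. Of 10 mesenchyme markers, Prrx1, Postn, Lum and Dcn had no count in these libraries. The list summed to 40.3 and 36.4 CPM there, of which Thy1, a surface protein of several cell types, made 30.2 and 27.6 CPM.

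Pluripotency rests on a small circuit of transcription factors. The POU factor Oct4 (Pou5f1) and the HMG-box factor Sox2 bind DNA side by side at many of their target genes, among them Nanog, a homeobox factor that helps ES cells to renew themselves. Sall4 is a zinc-finger partner of Oct4, Utf1 a chromatin protein controlled by Oct4 and Sox2, and Tdgf1 (Cripto) the coreceptor through which cells receive Nodal. Lin28a and Lin28b are RNA-binding proteins that block the maturation of let-7 microRNAs, which in turn repress both Lin28 genes.

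The start regions of Nanog and Sox2 are shown because Nanog holds the letters of the joint Oct4 and Sox2 element and Sox2 those of its POU core. RefSeq windows of 300 bases around the start were matched for 7 of the 8 members on GRCm38.p6, all but Sall4. Capitals mark matches on either strand to ATGCAAA, the POU core, or CATTGT, the SOX core. The Nanog window is chr6:122707239-122707538 and the Sox2 window chr3:34649745-34650044, both on the plus strand.
Nanog: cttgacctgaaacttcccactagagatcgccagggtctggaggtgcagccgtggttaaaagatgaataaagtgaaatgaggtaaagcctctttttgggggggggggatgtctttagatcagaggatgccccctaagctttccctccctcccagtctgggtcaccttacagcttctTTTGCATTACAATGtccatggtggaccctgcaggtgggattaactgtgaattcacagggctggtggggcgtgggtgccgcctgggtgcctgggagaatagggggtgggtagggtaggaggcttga
Sox2: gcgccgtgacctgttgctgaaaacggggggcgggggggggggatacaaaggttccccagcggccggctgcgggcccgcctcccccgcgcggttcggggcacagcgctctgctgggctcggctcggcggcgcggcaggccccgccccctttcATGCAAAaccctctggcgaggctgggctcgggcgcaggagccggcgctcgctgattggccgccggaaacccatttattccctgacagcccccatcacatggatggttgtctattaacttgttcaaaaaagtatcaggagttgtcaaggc
In Nanog the capitals run from 75 to 62 bases before the start and hold both cores, CATTGT and ATGCAAA separated by 1 base, read here on the opposite strand. This joined form, with any base between the cores, is present in 2 of 32851 mouse start windows of that length (0.00609%), both annotated to Nanog. Sox2 holds the POU core alone, 99 to 93 bases before the RefSeq start at 34649995. Positions here count from the RefSeq start, which for Sox2 lies before the GENCODE start printed with its levels, 34650405, so the window ends before that gene model. The 2 annotations also place the starts of Pou5f1, Utf1, Lin28a and Lin28b differently. The POU core is present in 4.63% and the SOX core in 12.6% of all windows, and each in 2 of the 7 members. The homeobox core TAATTA is in the Tdgf1 window (5.29% of all windows) and TAATTG in the Lin28b window (8.0%). These are matches of letters and not measured binding.

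The let-7 matches of the Lin28 genes are shown because these genes went in opposite directions at day 16. Of 10 mouse let-7 5p sequences in RefSeq, 9 share the seed GAGGUAG, bases 2 to 8, in capitals below, and let-7j has GAGGUAU. The 3′ UTR of Lin28a-201 (2775 bases in GENCODE) holds 2 matches to this seed and that of Lin28b-201 (4445 bases) holds 4, in capitals with 8 bases on each side, on the minus strand of chromosomes 4 and 10.
let-7a-5p: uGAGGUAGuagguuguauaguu
let-7g-5p: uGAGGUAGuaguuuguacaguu
Lin28a, chr4:134005182-134005204: ctgttgaaCTACCTCatttttgc
Lin28a, chr4:134004544-134004566: ccacaaacCTACCTCactgtgtt
Lin28b, chr10:45381015-45381037: cgggaagtCTACCTCatgcaagc
Lin28b, chr10:45378641-45378663: gttagtaaCTACCTCtgagtttg
Lin28b, chr10:45378469-45378491: gcacatggCTACCTCccagctac
Lin28b, chr10:45377053-45377075: ggcaccgaCTACCTCttcaatca
Among 2043 mouse 3′ UTRs at least as long as that of Lin28a, 16.9% hold the match at least once and 2.01% hold it at least 2 times within that length. For the length of the Lin28b UTR, 25.4% of 615 hold it and 0.488% hold it at least 4 times. MicroRNAs were not measured in these libraries.

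At day 2 the factors of the circuit fell together in Dlx2 EBs, while the Lin28 genes stayed close to the GFP level. Of the 8 members, 7 fell and 1 rose, where 33.0% of the 18650 genes tested fell and 34.1% rose. The median difference over the 8 members was -1.78, against 0.02 over all genes. Tdgf1 showed the largest difference, 6.20-fold lower with Dlx2, followed by Utf1 (5.56-fold), Nanog (4.24-fold), Pou5f1 (4.04-fold), Sox2 (2.93-fold) and Sall4 (1.77-fold). In bulk RNA, fewer cells that express a gene and less RNA per cell cannot be told apart. Most mesenchyme markers moved in the opposite direction. Of 10, 8 were tested, 7 rose and 1 fell, and their sum went from 22.9 and 23.8 CPM to 1537 and 1555 CPM. The collagen gene Col1a2 (1256 ± 20 CPM) and the receptor gene Pdgfra (234 ± 9.5 CPM) made up most of that sum, and Postn, Col3a1, Lum and Dcn stayed below 1.2 CPM. Of 7 tested endoderm markers 5 rose (sums from 13.3 and 11.9 to 61.0 and 63.0 CPM), and of 9 neural markers 7 rose and 1 fell (sums from 127 and 130 to 152.7 and 155.1 CPM). The part of these markers in the result was not tested.

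Pou5f1 (chromosome 17, 35506018 to 35510772 on GRCm38) stood at 645 and 692 CPM in the GFP libraries and at 156 and 175 CPM in the Dlx2 libraries. The groups did not overlap, and Pou5f1 fell by 2.01 ± 0.057 on the log2 scale (adjusted p = 2.02e-18). Sox2 (chromosome 3, 34650405 to 34652461), a gene of a single exon, was at 396 and 411 CPM with GFP and at 136 and 139.5 CPM with Dlx2, and fell by 1.55 ± 0.049 (adjusted p = 1.16e-17). Nanog (chromosome 6, 122707489 to 122714633) was at 481.5 and 465 CPM with GFP and at 113 and 109.9 CPM with Dlx2, and fell by 2.08 ± 0.050 (adjusted p = 9e-20). Of 6 SoxB1 and POU relatives of Sox2 and Pou5f1, 3 rose and 1 fell (34.1% and 33.0% of all genes). Sox1, a neural SOX gene, rose from 15.2 ± 1.1 to 35.5 ± 0.31 CPM (log2 difference 1.22 ± 0.086, adjusted p = 2.4e-11), and Sox3 was not called (-0.25 ± 0.12, adjusted p = 0.0599).

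Tdgf1 (chromosome 9, 110939603 to 110946158) had 786 and 772 CPM with GFP and 128 and 124 CPM with Dlx2, a log2 difference of -2.63 ± 0.050 (adjusted p = 1.91e-21). Utf1 (chromosome 7, 139943789 to 139945112) went from 499 and 543 CPM to 88.5 and 99.1 CPM, a difference of -2.47 ± 0.059 (adjusted p = 8.52e-20). Sall4 (chromosome 2, 168748332 to 168767943) had 241 and 245 CPM with GFP and 138 and 138 CPM with Dlx2, a difference of -0.82 ± 0.048 (adjusted p = 7.56e-13). In each of these genes both Dlx2 libraries lay below both GFP libraries, in a comparison where 33.0% of all genes were called lower. The difference in Sall4 was the smallest of the circuit. The paralog Sall1 fell by a like amount, -0.74 ± 0.048 (adjusted p = 5.01e-12), whereas Sall2 rose by 0.49 ± 0.084 (adjusted p = 2.46e-05). Of 14 genes of the Sall family and its NuRD chromatin partners, 5 rose and 4 fell, shares close to those of all genes (34.1% and 33.0%).

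The Lin28 genes differed little at day 2. Lin28a (chromosome 4, 134003330 to 134018841) was at 288 and 290.4 CPM with GFP and at 258 and 258 CPM with Dlx2. Its fall of 0.16 ± 0.047 (adjusted p = 0.00371) changed sign when libraries were scaled by size alone. The log2 difference was then 0.01 and was not called. Lin28b (chromosome 10, 45376620 to 45486395) had 50.6 and 44.5 CPM with GFP and 57.7 and 53.8 CPM with Dlx2, a rise of 0.23 ± 0.074 (adjusted p = 0.00858). The rise was 0.18 without Dlx2 replicate 1 and 0.13 without GFP replicate 2, and was not called in either case.

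**Figure D1:**
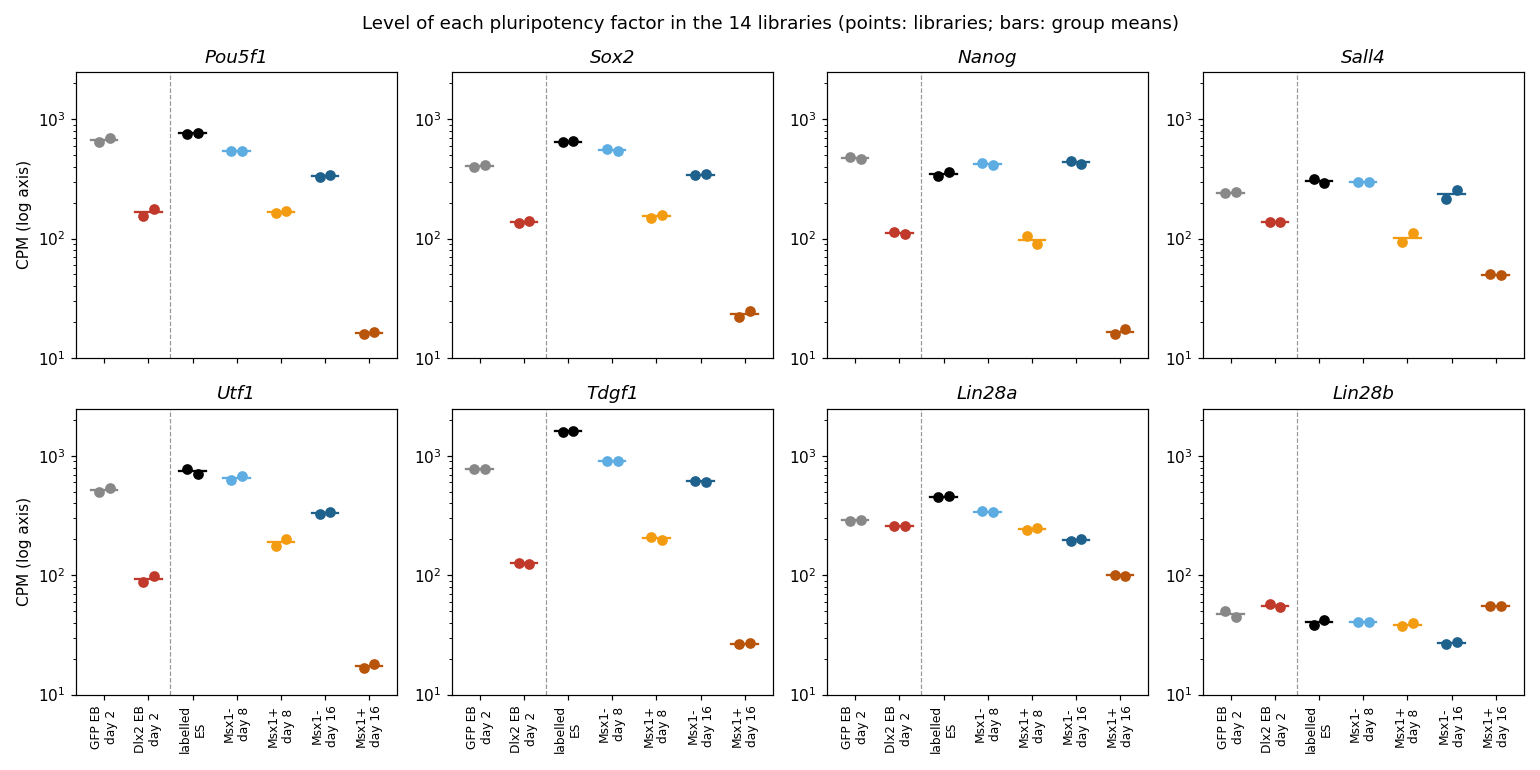
CPM of the 8 factors on a log axis in the 7 groups, with 1 point per library and a bar at each group mean; the dashed line separates the day-2 libraries, which were scaled on their own. Pou5f1, Sox2, Nanog, Utf1 and Tdgf1 are lowest in Msx1-positive cells of day 16 (15.7 to 26.9 CPM), while Lin28b lies between 26.8 and 57.7 CPM in every library.

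In the sorted cells the factors were lower in the Msx1-positive fraction, and the gap was wider at day 16 than at day 8. At day 8, 7 members were lower in Msx1-positive cells and none was higher, where 24.3% of the 22294 genes tested were lower and 30.4% higher. At day 16, 7 were lower and 1, Lin28b, was higher, where 31.0% of all genes were lower and 31.1% higher. The median difference over the members was -1.75 at day 8 and -4.08 at day 16, against 0.06 and -0.02 over all genes. Msx1 itself set the sort, and it stood at 43.8 ± 4.2 and 77.7 ± 5.6 CPM in the positive and at 1.46 ± 0.62 and 0.785 ± 0.046 CPM in the negative fractions of days 8 and 16. Dlx2 moved with the fractions too, with 1203 ± 94 against 270.3 ± 1.8 CPM at day 8 and 315 ± 37 against 139 ± 10.3 CPM at day 16, and its part in the result was not tested.

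For Pou5f1, the Msx1-negative libraries had 544.5 and 539.7 CPM at day 8 and 329.7 and 339 CPM at day 16. The Msx1-positive libraries had 163 and 172 CPM at day 8 and 15.9 and 16.5 CPM at day 16. The fractions did not overlap on either day, with a difference of -1.70 ± 0.055 at day 8 (adjusted p = 3.33e-12) and of -4.37 ± 0.064 at day 16 (adjusted p = 1.72e-15), which is 3.24-fold and 20.7-fold. Sox2 had 560.3 and 547 CPM in the negative and 149.5 and 158 CPM in the positive libraries of day 8. At day 16 it had 341 and 345.5 CPM in the negative and 21.8 and 24.7 CPM in the positive libraries. Its difference was -1.85 ± 0.064 and then -3.88 ± 0.071 (adjusted p = 6.23e-12 and 6.74e-15), the smallest of the 3 central factors at day 16. Nanog kept 434 and 415 CPM in the negative libraries of day 8 and 445 and 426 CPM in those of day 16. In the positive libraries Nanog went from 105 and 90.8 CPM to 15.7 and 17.4 CPM. It differed by -2.12 ± 0.074 at day 8 and by -4.72 ± 0.085 at day 16 (adjusted p = 6.73e-12 and 5.93e-15), or 26.4-fold, the widest gap among the 8 members at day 16.

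Sall4 had 297 and 298 CPM in the negative and 92.8 and 111 CPM in the positive libraries of day 8, and 213 and 256 against 50.2 and 49.3 CPM at day 16. Its log2 difference was -1.54 ± 0.092 and -2.24 ± 0.095 (adjusted p = 1.05e-08 and 2.45e-10). Sall1 differed by -1.35 ± 0.060 and -1.74 ± 0.062 and Sall2 by 1.29 ± 0.076 and 1.68 ± 0.077 in the same comparisons, all called. Utf1 had 635 and 683 against 176 and 203 CPM at day 8 and 326 and 341 against 16.7 and 17.99 CPM at day 16. Tdgf1 had 914 and 914 against 209 and 199 CPM at day 8 and 617.7 and 609.1 against 26.5 and 26.9 CPM at day 16. The differences of Utf1 were -1.80 ± 0.072 and -4.26 ± 0.083 and those of Tdgf1 -2.17 ± 0.056 and -4.52 ± 0.063, which at day 16 is 19.2-fold and 23.0-fold.

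Lin28a and Lin28b parted. Lin28a had 343 and 339.6 CPM in the negative and 239 and 248 CPM in the positive libraries of day 8, and 195.5 and 203 against 100.3 and 99.6 CPM at day 16. It differed by -0.49 ± 0.053 at day 8 and by -0.999 ± 0.054 at day 16 (adjusted p = 1.64e-06 and 5.79e-10). Lin28b had 40.8 and 40.6 CPM in the negative and 37.7 and 39.6 CPM in the positive libraries of day 8. It was not called there (-0.07 ± 0.066, adjusted p = 0.364, and 0.08 when scaled by library size alone). At day 16 it had 26.8 and 27.8 CPM in the negative and 55.0 and 54.8 CPM in the positive libraries, a rise of 1.00 ± 0.067 or 2.01-fold (adjusted p = 5.86e-09). It was the only member higher in Msx1-positive cells at day 16.

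**Figure D2:**
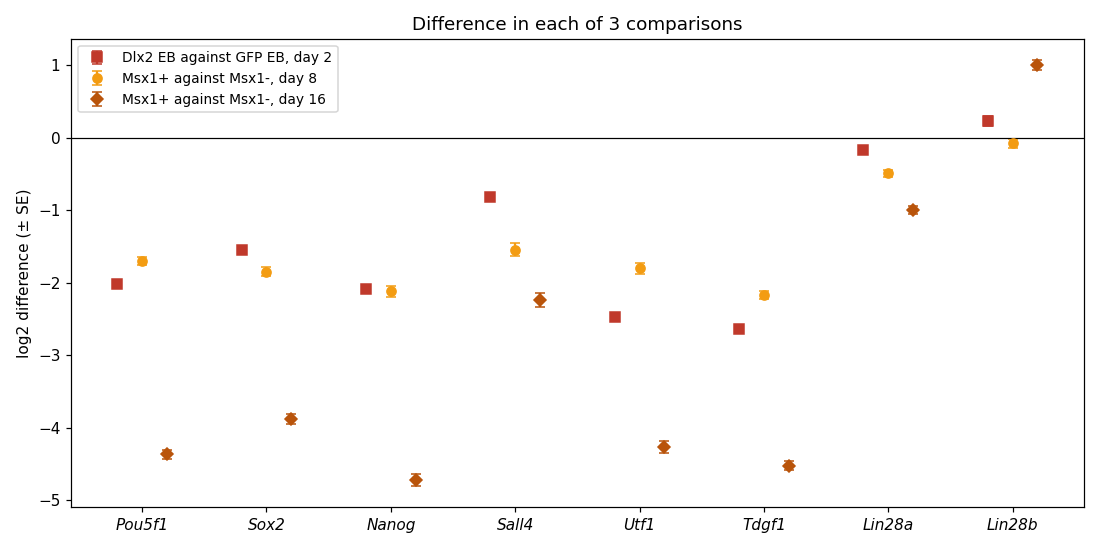
Log2 difference ± SE of each factor in Dlx2 against GFP EBs at day 2 and in Msx1-positive against Msx1-negative cells at days 8 and 16; values below 0 are lower in Dlx2 EBs or in Msx1-positive cells. The day-16 values of Pou5f1, Sox2, Nanog, Utf1 and Tdgf1 lie between -4.72 and -3.88, and Lin28b is at 1.00.

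The gap between fractions differed between the days in all 8 members by the interaction term, lower at day 16 for 7 and higher for Lin28b. Among all genes, 18.3% were called lower and 10.3% higher in this term. Within Msx1-positive cells, 7 members fell from day 8 to day 16 and Lin28b rose, where 24.8% of genes fell and 21.1% rose. Utf1 changed by -3.45 ± 0.081 and Pou5f1 by -3.37 ± 0.062 (10.9-fold and 10.3-fold), and Lin28b rose by 0.50 ± 0.065. Within Msx1-negative cells 7 members fell and none rose, where 17.8% of genes fell and 19.7% rose, and these changes were smaller. They ran from -0.35 ± 0.090 for Sall4 to -0.98 ± 0.071 for Utf1. Nanog was not called there (0.04 ± 0.071, adjusted p = 0.746), and its value was -0.01 without the day-8 replicate 2. The Sall4 change was -0.36 without the day-8 replicate 2 and -0.23 without the day-16 replicate 1, and was not called in either case. These comparisons share libraries with those of the fractions.

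Set beside the libraries labelled ES, 5 of the factors stood below 5% of that level in Msx1-positive cells of day 16, and Nanog in Msx1-negative cells lay above it. The 4 sorted groups share the same 2 ES libraries as their control, so their values are given side by side. In Msx1-positive cells of day 8, 7 members were lower and none higher (26.9% and 34.6% of 22504 genes), and at day 16, 7 were lower and 1 higher (33.7% and 37.3%). In Msx1-negative cells of day 8, 4 were lower and 1 higher (14.5% and 19.0%), and at day 16, 7 were lower and 1 higher (24.5% and 28.5%).

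Pou5f1 stood at 749.6 and 774 CPM in the labelled ES libraries. Its group means were 71.2% of that mean in Msx1-negative cells of day 8, 43.9% in those of day 16, 22.0% in Msx1-positive cells of day 8 and 2.13% in those of day 16. Sox2 (647 and 656 CPM in labelled ES) had 85.0%, 52.7%, 23.6% and 3.58% in the same order. The neighbouring groups in the order of Pou5f1 and of Sox2 did not overlap. The Sox2 difference of -0.23 ± 0.058 in Msx1-negative cells of day 8 (adjusted p = 0.00483) was -0.21 without replicate 2 of those cells, where it was not called.

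Nanog had 332 and 364 CPM in the labelled ES libraries. In Msx1-negative cells it was 122% of that level at day 8 and 125% at day 16. The differences were 0.29 ± 0.070 (adjusted p = 0.0041) and 0.32 ± 0.070 (adjusted p = 0.000838). The first was 0.23 and not called without ES replicate 1, the lower of the ES libraries for Nanog. The groups of Nanog at days 8 and 16 overlapped with each other in the negative fraction. In Msx1-positive cells it had 28.1% at day 8 and 4.75% at day 16. Nanog counts as a share of Pou5f1 counts in the same library do not depend on scaling between libraries. This share was 44.4% and 47.0% in labelled ES, 79.7% and 77.0% in Msx1-negative cells of day 8, and 135% and 126% in those of day 16. In Msx1-positive cells it was also above labelled ES, with 64.3% and 52.8% at day 8 and 98.6% and 105% at day 16. It was 74.7% and 67.2% in GFP EBs and 72.8% and 62.7% in Dlx2 EBs, which overlapped.

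Tdgf1 had 1601 and 1629 CPM in labelled ES and, of the 8 members, the lowest percent of its ES level in each sorted group. It stood at 56.6% and 38.0% in Msx1-negative cells and at 12.6% and 1.65% in Msx1-positive cells of days 8 and 16, the last a 60.5-fold difference. Utf1 (782 and 708 CPM in labelled ES) had 88.5% and 44.7% in the negative and 25.4% and 2.33% in the positive cells. Its difference in Msx1-negative cells of day 8, -0.18 ± 0.070, was not called (adjusted p = 0.0637), and was called with DESeq2, without a filter, with a filter of 1 CPM in 2 libraries and without ES replicate 2. Sall4 (317 and 293 CPM) had 97.6% and 76.9% in the negative and 33.5% and 16.3% in the positive cells. Its day-8 negative libraries overlapped labelled ES, and the difference of -0.38 ± 0.089 in those of day 16 (adjusted p = 0.00233) was -0.23 and not called without replicate 1 of that group.

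**Figure D3:**
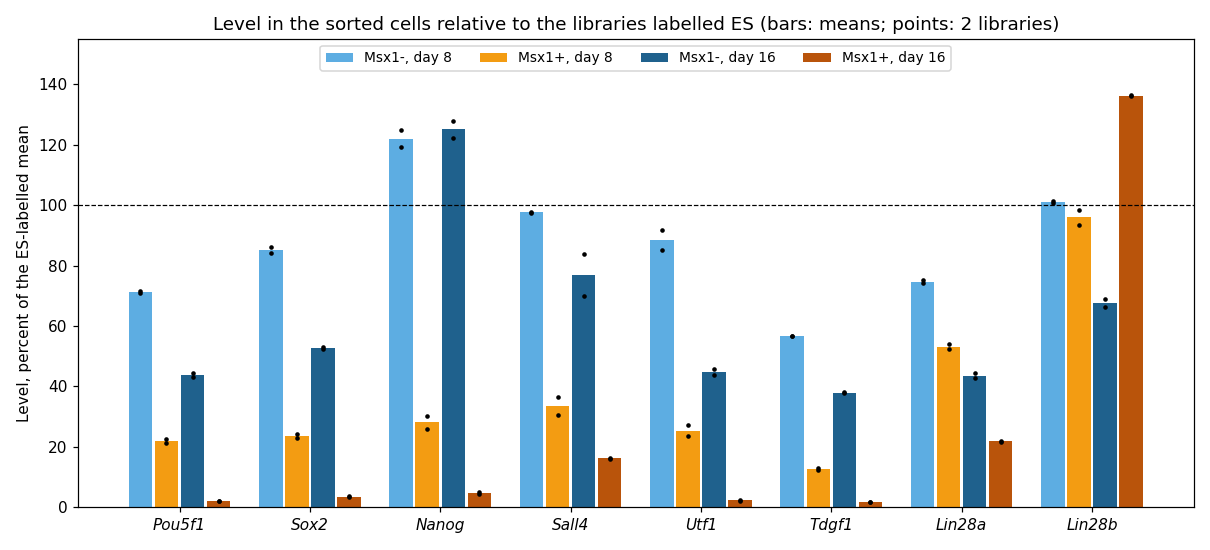
Level of each factor in the 4 sorted groups as a percent of its mean in the libraries labelled ES (bars, group means; points, 2 libraries; dashed line, 100%). Nanog is above the line in both Msx1-negative groups, Lin28b in Msx1-positive cells of day 16, and Pou5f1, Sox2, Nanog, Utf1 and Tdgf1 are at 1.65% to 4.75% in the latter.

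Lin28a had 449.6 and 465 CPM in labelled ES and fell stepwise to 74.7% (negative, day 8), 53.2% (positive, day 8), 43.6% (negative, day 16) and 21.9% (positive, day 16), with no overlap between neighbours. For Lin28a and Lin28b, unlike the other 6, the Msx1-positive cells of day 8 lay above the Msx1-negative cells of day 16. Lin28b had 38.1 and 42.5 CPM in labelled ES and overlapped with the negative and the positive cells of day 8. It fell to 67.7% in the negative cells of day 16 (-0.56 ± 0.073, adjusted p = 3.97e-06) and rose to 136% in the positive cells (0.45 ± 0.071, adjusted p = 2.27e-05). Lin28b counts as a percent of Lin28a counts in the same library were 8.47 and 9.15 in labelled ES, 11.9 and 11.9 in the negative and 15.8 and 16.0 in the positive cells of day 8. At day 16 they were 13.7 and 13.7 in the negative and 54.8 and 55.0 in the positive cells. At day 2 they were 17.6 and 15.3 with GFP and 22.4 and 20.8 with Dlx2. The share was thus higher in each Dlx2 or Msx1-positive library than in its counterparts, and highest in Msx1-positive cells of day 16.

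**Figure D4:**
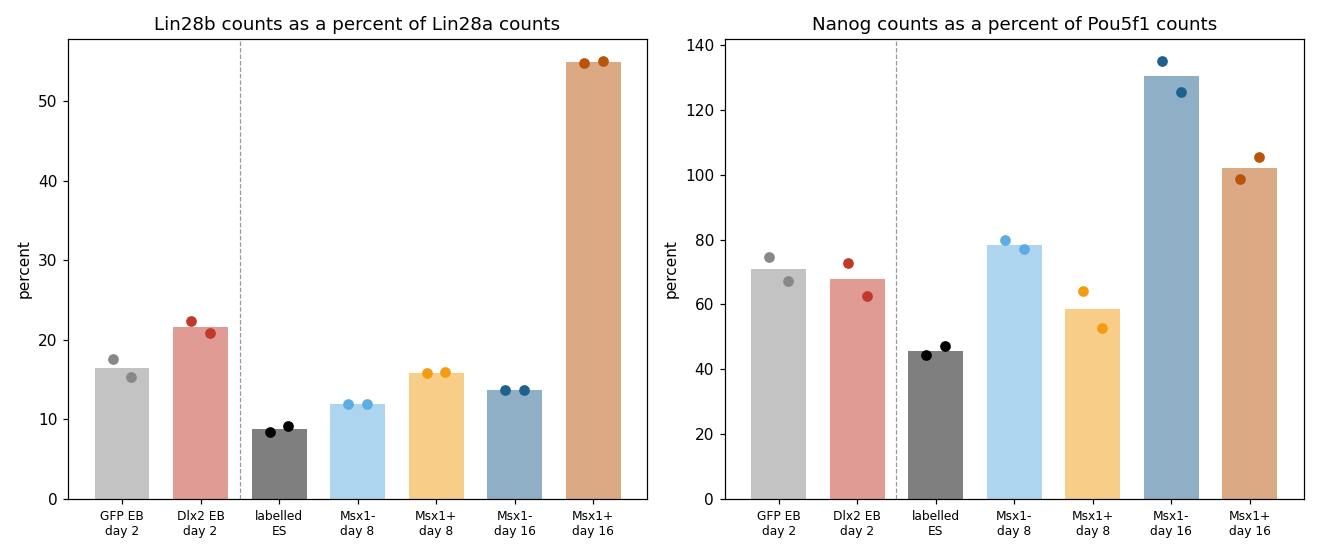
Counts of Lin28b as a percent of Lin28a (left) and of Nanog as a percent of Pou5f1 (right) within each library (points; bars, group means; the dashed line separates the day-2 libraries). Lin28b reaches 54.9% of Lin28a in Msx1-positive cells of day 16, and Nanog 130% of Pou5f1 in Msx1-negative cells of day 16.

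Per kilobase of exon, which allows genes to be compared, Tdgf1 (616 CPM per kb) and Utf1 (607 CPM per kb) led in labelled ES and overlapped within their spread. Lin28b was lowest at 4.45 CPM per kb. In Dlx2 EBs the leading 4 members lay between 64.6 and 76.4 CPM per kb. In Msx1-positive cells of day 16 Lin28a led with 25.0 CPM per kb, and the other members lay between 6.06 and 14.2 CPM per kb. The range over the 8 members was thus narrowest in that group, and Lin28a, sixth in labelled ES, was the most abundant.

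The named partners and targets of the core factors moved in the same direction as the circuit. Of 15 such genes, 14 fell and none rose at day 2 (33.0% and 34.1% of all genes). All 15 were lower in Msx1-positive cells at day 8 and at day 16 (24.3% and 31.0% of all genes). Their median differences were -1.27, -1.21 and -2.42, against 0.02, 0.06 and -0.02 over all genes. Dppa5a, an RNA-binding protein of ES cells, went from 2292 ± 9 to 275 ± 11 CPM at day 2 (-3.06 ± 0.052, adjusted p = 2.57e-22). L1td1, another RNA-binding protein of ES cells, fell by 1.93 ± 0.049 (adjusted p = 2.25e-19). At day 16, the difference of Dppa5a was -4.97 ± 0.099 and that of the growth factor gene Gdf3, also in the Nodal list, -4.40 ± 0.096 (adjusted p = 3.69e-14 and 3.32e-14).

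Of 15 genes of the naive state, the early embryo-like condition of ES cells, 13 fell and 1 rose at day 2. Among all genes, 33.0% fell and 34.1% rose there. At days 8 and 16, 14 were lower and 1 higher in Msx1-positive cells. The shares of all genes were 24.3% and 30.4% at day 8, and 31.0% and 31.1% at day 16. Fgf4, a growth factor gene and classic target of Oct4 and Sox2, fell from 191 ± 0.47 to 31.6 ± 1.4 CPM at day 2 (-2.60 ± 0.056, adjusted p = 1.37e-20). It stood at 123 ± 3.7 against 2.98 ± 0.23 CPM in the fractions of day 16 (-5.37 ± 0.077, adjusted p = 1.72e-15). The gene that rose each time was Stat3, the transcription factor downstream of LIF, from 88.5 ± 3.2 to 441 ± 4.1 CPM at day 2 (2.32 ± 0.051, adjusted p = 2.17e-20). Against labelled ES, 5 naive genes were higher and 9 lower in Msx1-negative cells of day 8 (19.0% and 14.5% of all genes). Klf2, a Krüppel-like factor of the naive state, led the rise with 273 ± 8.2 against 123 ± 13 CPM (1.14 ± 0.094, adjusted p = 7.15e-07).

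Of 13 genes of the formative and primed states, which follow implantation, 12 fell and none rose at day 2 (33.0% and 34.1% of all genes). Fgf5, a marker of the primed epiblast, fell from 8.36 ± 1.2 to 0.92 ± 0.050 CPM (-3.18 ± 0.21, adjusted p = 8.05e-12). In the sorted cells, 2 of the 13 were higher and 10 lower in the Msx1-positive fraction at day 8, against 30.4% and 24.3% of all genes. At day 16, 3 were higher and 7 lower, against 31.1% and 31.0%. The median differences of the 13 genes were -0.76 and -1.16, against 0.06 and -0.02 over all genes. Against labelled ES, 7 were higher and 3 lower in Msx1-negative cells of day 8 (19.0% and 14.5% of all genes). Fgf5 led the rise (9.07 ± 0.24 against 0.38 ± 0.037 CPM). Fgf5 was not called between the fractions on either day, and had 7.91 ± 0.070 CPM in Msx1-positive cells of day 8.

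Genes of the Nodal pathway around Tdgf1 were called in both directions. At day 2, 5 of 14 tested genes rose and 6 fell, shares not far from those of all genes (34.1% and 33.0%), so the counts say nothing particular of the pathway. Lefty1, a Nodal antagonist, fell from 239.9 ± 15 to 64.6 ± 0.94 CPM (-1.89 ± 0.054, adjusted p = 2.27e-18), and Gdf3, a ligand that acts with Nodal, from 103 ± 1.6 to 30.5 ± 1.5 CPM (-1.76 ± 0.064, adjusted p = 1.64e-16). The activin receptor Acvr2a rose from 21.0 ± 0.56 to 50.3 ± 2.6 CPM (1.26 ± 0.080, adjusted p = 3.38e-12). Between the fractions, 5 of 16 were higher and 7 lower at day 8 (30.4% and 24.3% of all genes). At day 16, 7 were higher and 8 lower (31.1% and 31.0% of all genes). The ligand Nodal differed by -1.38 ± 0.071 at day 8 (adjusted p = 4.37e-10), with 68.7 and 71.3 CPM in the negative and 26.9 and 26.9 CPM in the positive libraries. At day 16 Gdf3 and Lefty2 had the largest falls of the list with Msx1. Lefty2, an antagonist, had 357 and 354 against 48.1 and 48.4 CPM (-2.88 ± 0.057, adjusted p = 1.43e-14). Against labelled ES, 10 of 16 were higher and none lower in Msx1-negative cells of day 8, where Tdgf1 was at 56.6%. Of all genes, 19.0% were higher and 14.5% lower in that comparison. Lefty1 was 174 ± 9.3 against 86.0 ± 15 CPM there (1.01 ± 0.086, adjusted p = 2.49e-07).

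Genes of let-7 turnover and well-known let-7 targets were called in both directions too. At day 2, 7 of 20 rose and 8 fell, again not far from the shares of all genes (34.1% and 33.0%). In the Msx1-positive fraction 6 of 19 were higher and 11 lower at day 8 (30.4% and 24.3% of all genes). At day 16, 8 were higher and 10 lower (31.1% and 31.0% of all genes). Hmga2, a chromatin protein and classic let-7 target, led the rises. It had 25.5 and 23.5 CPM with GFP and 219.5 and 219 CPM with Dlx2 (3.16 ± 0.060, adjusted p = 1.53e-21). At day 16 it had 71.2 and 73.9 CPM in the negative and 570.1 and 625 CPM in the positive libraries (3.04 ± 0.068, adjusted p = 4.32e-14). Igf2bp2, an RNA-binding protein, rose by 1.504 ± 0.050 at day 2 (adjusted p = 3.88e-17). Trim71, a let-7 target with ubiquitin ligase features, differed by -0.96 ± 0.049 at day 2, by -0.86 ± 0.11 at day 8 and by -1.35 ± 0.11 at day 16 (adjusted p = 6.46e-14, 8.61e-05 and 2.63e-06). Ccnd1 (cyclin D1) fell by 1.29 ± 0.053 at day 2 and was higher by 2.46 ± 0.060 in Msx1-positive cells of day 16 (adjusted p = 1.52e-15 and 9.6e-14), with 256 and 261 against 46.3 and 47.3 CPM.

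Markers of other cell types moved with the fractions, and their part in the levels of the 8 members was not tested. All 10 mesenchyme markers were higher in Msx1-positive cells on both days (30.4% of all genes at day 8 and 31.1% at day 16). Their sums were 79.9 and 78.2 CPM in the negative and 2020 and 2255 CPM in the positive libraries of day 8, and 699.6 and 775 against 17560 and 16250 CPM at day 16. Germ cells can also hold Pou5f1 and Sall4. Of 8 germ cell markers, 1 (Dppa3) is also in the naive list. In Msx1-positive cells of day 8, 5 of the 8 were lower and 1, Ddx4, higher (24.3% and 30.4% of all genes). At day 16 all 8 were lower (31.0% of all genes). They summed to 512 and 508 against 112 and 110.3 CPM there, and to 197 and 189 CPM in labelled ES. Dazl, a germ cell RNA-binding protein, had 84.1 ± 9.4 CPM in the negative and 7.50 ± 0.77 CPM in the positive cells of day 16. Against labelled ES, 5 of the 8 were higher and 1, Dnd1, lower in Msx1-negative cells of day 16 (28.5% and 24.5% of all genes). Kit (228 against 57.3 CPM), Tfap2c (134 against 62.7 CPM) and Dazl (84.1 against 16.9 CPM) carried most of the higher sum. Ddx4 (24.0 against 25.7 CPM), Nanos3 (1.37 against 1.46 CPM) and Dnd1 (7.10 against 10.4 CPM) did not rise. Of 10 endoderm markers, 5 were lower and 2 higher in Msx1-positive cells of day 8 (24.3% and 30.4% of all genes). At day 16, 8 were lower and none higher (31.0% and 31.1%). Their day-16 sums were 815 and 837 CPM in the negative and 226 and 234 CPM in the positive libraries. Labelled ES had 7.27 and 6.88 CPM. Of 9 tested neural markers, 5 rose and 2 fell with Msx1 at day 8 (30.4% and 24.3% of all genes). At day 16, 5 rose and 2 fell again (31.1% and 31.0%). Sox1 was among the lower (3.85 ± 0.35 against 15.2 ± 1.0 CPM at day 16), and Sox3 was not called (12.9 ± 0.95 against 12.8 ± 1.8 CPM). Of 6 trophectoderm markers, 3 rose and 3 fell with Msx1 at day 16 (31.1% and 31.0% of all genes). Their sums of 291 and 293 against 144 and 146 CPM were carried by Tfap2c (134 against 38.6 CPM), also in the germ cell list, and Krt7 (102 against 27.6 CPM), whereas Cdx2, Hand1 and Gata3 rose. Of 8 primitive streak markers, 4 rose and none fell with Msx1 at day 8 (30.4% and 24.3% of all genes). At day 16, 5 rose and 1 fell (31.1% and 31.0%). These markers summed to between 11.2 and 37.2 CPM in every library. Each of these marker lists had counts for all its genes in the sorted cells, except Neurog2 at 0 in Msx1-negative cells of day 8.

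The genes most like each member over the 10 libraries of labelled ES and sorted cells are given as a description, since these libraries share their groups. Likeness was Pearson's r of log2(CPM + 1) over 12813 genes with a mean of at least 5 CPM in some group. For Pou5f1 the nearest genes were Esrrb (r = 0.9992), Zfp42 (0.9986) and Dmrt1 (0.9985), of which Esrrb and Zfp42 are naive-state genes. Esrrb had 734.6 ± 26 CPM in labelled ES, 371 ± 4.3 CPM in the negative and 21.1 ± 0.077 CPM in the positive cells of day 16. Sox2 was nearest to Gpa33 (0.9992), Nanog to Nfatc2ip (0.9985), Sall4 to Kat7 (0.9977), Utf1 to Dmrt1 (0.9989) and Tdgf1 to Trim6 (0.9987). Lin28a was nearest to Spata31d1b (0.9929) and Lin28b to Trim11 (0.9676). Among the members themselves, Pou5f1, Sox2, Utf1 and Tdgf1 had r between 0.986 and 0.998 with each other. Nanog had 0.805 with Lin28a, and Lin28b had values from -0.753 to -0.34 with the other 7.

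The kit does not mark strand, so reads of overlapping opposite genes cannot be told apart. GENCODE places the exons of Gm19553 over 317 bases of Pou5f1, Gm14261 over 526 bases of Sall4 and Gm13061 over 234 bases of Lin28a. None of them exceeded 27 counts in a library. How reads of the shared bases were assigned is not given, so these counts cannot show the size of the overlap's effect. The pseudogene Tdgf1-ps1 reached 3.20 CPM in labelled ES, beside 1601 CPM of Tdgf1 in the same library, and Nanog-ps1 had at most 3 counts in a library. How the counting treated reads that fit both a gene and its pseudogene is not given in the sources used here.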

How the data were processed

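The authors deposited raw read counts per gene symbol in 2 tables. Every value is a whole number, and no normalisation by the authors is recorded for them. Per the submitters' processing notes, fastp 0.20.0, HISAT2 2.1.0, DESeq2 1.18.1 and GRCm38 were used; the counting program is not given in the sources used here. GEO's labels describe 18 samples in 9 groups, of which 4 samples of 2 uninduced groups were not analysed here. Column names at day 2 give the line (Dlx2 or GFP) but not doxycycline, and were read as induced, since the design compares overexpressing EBs. No symbol with fewer than 5 counts in all is listed at day 2.

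Genes were kept by filterByExpr and scaled by TMM, and edgeR 4.0.16 (R 4.3.3, limma 3.58.1; glmQLFit robust, glmQLFTest, two-sided, Benjamini-Hochberg over all genes, threshold 0.05) was fitted to 4 libraries at day 2 (18650 genes), to the 8 sorted libraries (22294 genes) and, for comparisons with ES, to 10 libraries (22504 genes). SEs were back-computed from F. The day-2 fit and the fit of 10 libraries were run on simulated counts in which every gene had the same spread beyond counting noise. That check does not cover spread that differs between genes or groups. Exon lengths, coordinates and UTRs are from GENCODE vM21 by symbol (25603 and 53263 symbols matched), and start windows and microRNAs from RefSeq (GRCm38.p6). Alternatives were RLE or library-size scaling, DESeq2 1.42.0, other filters, a replicate block, all 10 libraries in the fit and leaving out each library. All 8 members are named, and from each gene list at most the 2 called genes with the largest rise and the 2 with the largest fall in a comparison, plus Sox and Sall paralogs, and for likeness the 3 nearest genes. Nodal, Lefty2, Esrrb, Sox1, Sox3, Klf2 and Dazl fall under this rule in at least 1 comparison described. The mesenchyme and trophectoderm markers given by name, and the germ cell markers other than Dazl, were chosen after their values were seen. Members and lists were chosen with earlier results of these data known. Replicates differed by more than counting noise (chi-square per degree of freedom 4.40 to 20.2), so no library was counted as a duplicate.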

Additional observations from a re-analysis of the deposited data

Results flagged for a closer look

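The difference between Msx1-positive and Msx1-negative cells differed between the days in all 8 members, by the interaction term of edgeR's quasi-likelihood fit with 2 libraries per group. As the day-16 difference minus the day-8 difference on the log2 scale, it was -2.67 ± 0.080 (SE) for Pou5f1, -2.03 ± 0.091 for Sox2, -2.60 ± 0.11 for Nanog, -0.70 ± 0.13 for Sall4, -2.47 ± 0.10 for Utf1, -2.36 ± 0.078 for Tdgf1 and -0.51 ± 0.076 for Lin28a. Lin28b went the other way, with 1.08 ± 0.094. Adjusted p ran from 3.69e-11 for Pou5f1 to 0.00124 for Sall4. Over all genes this term was called lower in 18.3% and higher in 10.3%, with a median of -0.10. Groups of 2 libraries were too small for the search for single outlying libraries.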

How the results depend on the processing

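Among the recomputed differences of single members, 845 kept their direction and their side of the threshold, 8 changed sign (1 of them, Lin28a at day 2, also lost its call), 7 lost the call with the same sign and 4 gained one. With library size alone, Lin28a at day 2 was 0.01, Lin28b between the fractions of day 8 was 0.079, and Lin28b in Msx1-positive cells of day 8 against labelled ES was 0.127. Leaving out 1 library at a time, Nanog from day 8 to day 16 in Msx1-negative cells ran from -0.01 to 0.067, Lin28b against labelled ES from -0.13 to 0.023 in Msx1-positive and from -0.06 to 0.10 in Msx1-negative cells of day 8, and Sall4 in the latter from -0.09 to 0.027; of these, none was called with all libraries. The number of members called higher ran from 0 to 1 at day 2 and from 0 to 1 in Msx1-negative cells of day 8 against labelled ES. The number called lower was 6 in place of 7 at day 2 with library size alone, ran from 3 to 5 around 4 in Msx1-negative cells of day 8 against labelled ES, and from 6 to 7 in those of day 16 against labelled ES or day 8. The cause of these changes was not tested. The CPM of a member in a group changed by at most 1.08 times with library size alone and 0.978 times with RLE scaling. With the replicate block, 7 members were lower in Msx1-positive cells of day 8, as without it, and no call of a member changed; same-numbered libraries did not deviate together (correlations of -0.05 to 0.12), and the day-2 columns carry no sample number to pair. The lowest count of a member in any library was 970.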
